A study of Mus musculus with 8 samples.

Results

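The transcriptome described here is that of mouse embryos that were left alone until the late 2-cell stage. It was read in 2 pools of 100 non-manipulated embryos, out of 8 pools in the series. Zygotes from superovulated B6C3F1 x CD1 matings were taken from the oviducts and kept in KSOM(aa) medium, and these controls stayed undisturbed in the incubator. The protocol gives 28 h of culture and the age label 24 h in vitro, and cleavage to the 2-cell stage was described as normal. The other 6 pools, 2 per group, were injected at the pronuclear stage with Trim21 mRNA, with Trim21 mRNA plus an antibody to COPS3, or with the antibody alone. The 4 groups were made on different days within a week. Both non-manipulated pools shared a day, so the spread between them holds no difference between days, and nothing in the labels says that they came from different dams. Single embryos cannot be told apart in a pool, nor can fewer cells of a type be told from less RNA per cell.

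At the late 2-cell stage the mouse embryo is changing its source of RNA. Growing oocytes stock messengers and ribosomes that carry the zygote through its first cleavage, and most of these maternal messengers are then degraded. The embryo's own genome comes on in a minor wave in the zygote and a major wave in the late 2-cell embryo. Some transcripts, such as those of the Zscan4 and Tdpoz families, are known to peak only in this short window. An array of RNA from this stage therefore holds maternal remnants beside newly made transcripts, and the level of a gene does not separate them.

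RNA was measured on Affymetrix whole-transcript arrays, and a level is the log2 brightness that the deposited table gives for a gene's probes. Probes differ in how well they bind, so a rank is a rank of signal and not of RNA molecules. The table named 1 gene on 31260 of its 65955 usable rows. Keeping the row with the highest mean of the pools for each gene left 30703 genes. The median gene stood at 5.36 in pool 1 and 5.39 in pool 2, and the highest at 19.64 and 19.66.

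As a measure of background signal, the 1088 olfactory receptor genes were used, which code for odour receptors of sensory neurons. Their median was 4.13, and the background level was set at the 95th percentile of their mean levels, 5.23. Above this level stood 16094 genes (52.4% of all), and by construction about 5% of the olfactory receptors. Of the 19228 protein-coding genes 11245 were above the background level (58.5%), and their median was 5.80. The 1534 genes in the highest 5% of ranks (5.00% of all) were called the top tier, which began at 12.51. The 14560 genes between the limits formed the middle and the other 14609 the background. On the linear scale the top tier held 88.0% of the summed signal of all genes, the middle 11.5% and the background 0.428%. The 100 highest genes alone held 41.2% of it.

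**Figure D1:**
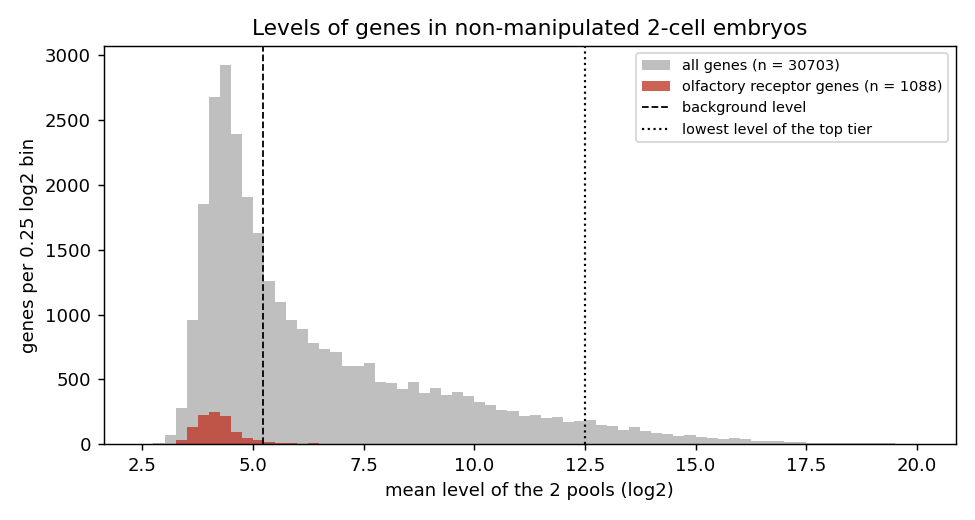
The x axis gives the mean log2 level of the 2 non-manipulated pools and the y axis the number of genes in bins of 0.25. Grey bars are all 30703 genes and red bars the 1088 olfactory receptor genes; the dashed line marks the background level of 5.23 and the dotted line the lowest top-tier level of 12.51.

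The pools gave nearly the same order of genes. Of the 500 highest genes in pool 1, 487 were also among the 500 highest of pool 2, as were 95 of the highest 100 and 975 of the highest 1000. Across the 30703 genes, which are not independent replicates, Pearson's r between the pools was 0.997 and Spearman's rho 0.990. The absolute difference between pools had a median of 0.10 on the log2 scale and a 95th percentile of 0.40. It was smaller at high levels, with a median of 0.06 among the 217 genes above 16. Over 2-fold differences were found in 49 genes (0.160% of all), which are described at the end.

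Markers of the stage were detected. All 10 measured markers of the 2-cell embryo and all 12 of the oocyte and zygote were above background, where 52.4% of all genes and 58.5% of protein-coding genes were. Median levels were 10.57 for the first set and 11.25 for the second. Among 10 blastocyst markers 8 were above background, but with a median of 5.90, so passing background does not by itself tell stages apart. The sets were chosen with earlier results of these data known. Other cells were read with short sets of markers: 2 of 7 for sperm, 1 of 3 for oviduct, 2 of 7 for cumulus and granulosa cells and 0 of 2 for blood passed, with mean levels up to 6.97. Those that passed were Ovgp1 for oviduct (6.85 and 7.09) and Prm1 (5.98 and 5.91) and Prm2 (5.70 and 5.69) for sperm. For cumulus and granulosa cells they were Tnfaip6 (6.04 and 6.41) and Has2 (5.76 and 5.52). Longer lists gave a less even picture, with 5 of 17 sperm genes, 7 of 17 oviduct genes and 9 of 21 cumulus and granulosa genes above background, shares of 29.4%, 41.2% and 42.9%. The highest members of the oviduct and sperm lists are not private to those cells. The adhesion genes Epcam (10.66 and 10.55) and Cdh1 (10.61 and 10.63) led the oviduct list and the centrosome gene Odf2 (9.01 and 8.97) the sperm list. In the cumulus and granulosa list Amhr2, the receptor for anti-Mullerian hormone, was highest (12.02 and 11.99). Inha, a subunit of the hormone inhibin, followed (6.30 and 10.32), then the stem cell factor Kitl (6.29 and 6.46) and the steroid enzyme Cyp11a1 (6.38 and 6.32). The hormone receptor Fshr (4.78 and 4.94), the transcription factor Foxl2 (3.88 and 3.94) and the hormone Amh (3.58 and 3.37) of the same list were at background in both pools.

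The highest ranks held many genes that do not code for protein. Of the 100 highest genes, 27 were protein-coding by RefSeq, 56 were pseudogenes and 8 were microRNA genes. Among the highest 500, 301 were pseudogenes and 164 protein-coding. Pseudogenes reached the top tier in 13.8% of cases (666 of 4836) and protein-coding genes in 4.22% (812 of 19228). Probes of a processed pseudogene can bind the RNA of its parent gene, and the 2 cannot be told apart here. Those named for a ribosomal protein gene were in the top tier in 124 of 217 cases, against 542 of the other 4619. Examples are Rps23-ps1 (19.01 and 18.97), Rpl10a-ps1 (18.69 and 18.61) and Rps27a-ps3 (18.45 and 18.35). Long non-coding RNA genes stood mostly at background (78.3% of 3344), and 18 of them reached the top tier.

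Of 924 microRNA genes, 306 were above background and 16 in the top tier. RefSeq (GRCm38.p6) held a mature sequence for 12 of these 16. The sequences of the 6 highest of the 12 are shown because they bear on what the probes of these rows can bind; capitals mark the seed, bases 2 to 8, by which a microRNA pairs with its targets.
miR-3471 of Mir3471-1 (chr4:10845585-10845606, minus strand): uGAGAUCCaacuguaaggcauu
miR-3473f of Mir3473f (chr1:106546536-106546555, minus strand): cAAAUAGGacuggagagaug
miR-6240 of Mir6240 (chr5:114851973-114851998, plus strand): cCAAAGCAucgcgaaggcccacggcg
miR-703 of Mir703 (chr5:98475616-98475636, minus strand): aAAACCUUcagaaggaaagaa
miR-3473a of Mir3473a (chrX:162874920-162874937, minus strand): uGGAGAGAuggcucagca
miR-3470b of Mir3470b (chr16:44013885-44013905, plus strand): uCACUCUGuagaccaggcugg
No pair among the 6 shares a seed, although miR-3473f and miR-3473a share the 10-base run uggagagaug. Mir3471-1 stood at 19.39 and 19.35, second of all genes, and Mir3473f at 18.90 and 18.71. Mir6240 followed at 18.53 and 18.63, Mir703 at 17.95 and 17.84, Mir3473a at 17.48 and 17.10 and Mir3470b at 16.58 and 17.11. Read as DNA on either strand, the mature sequence of miR-3471 occurs in 11 of 32851 promoter windows of 300 bases around gene starts, that of miR-3470b in 10 and that of miR-3473a in 9, so it is not unique to its own locus. The other 3 were found in none of these windows. Each such row reads RNA that matches the locus and does not show a mature microRNA.

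Once predicted genes, clones and small RNAs were set aside, the 40 highest genes spanned ranks 1 to 129, and 35 of them are protein-coding by RefSeq. Drr1, which could not be matched to RefSeq, ranked first (19.64 and 19.66). Pool values of neighbouring genes in this list overlapped for 20 of 39 pairs, so much of the order within it is not resolved. The largest difference between pools was 0.21 (Timm23, a subunit of the mitochondrial protein import channel, at 16.81 and 16.60). By function the list holds oocyte genes, mitochondrial RNA, ribosome and RNA-binding genes, histones and ubiquitin genes.

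**Figure D2:**
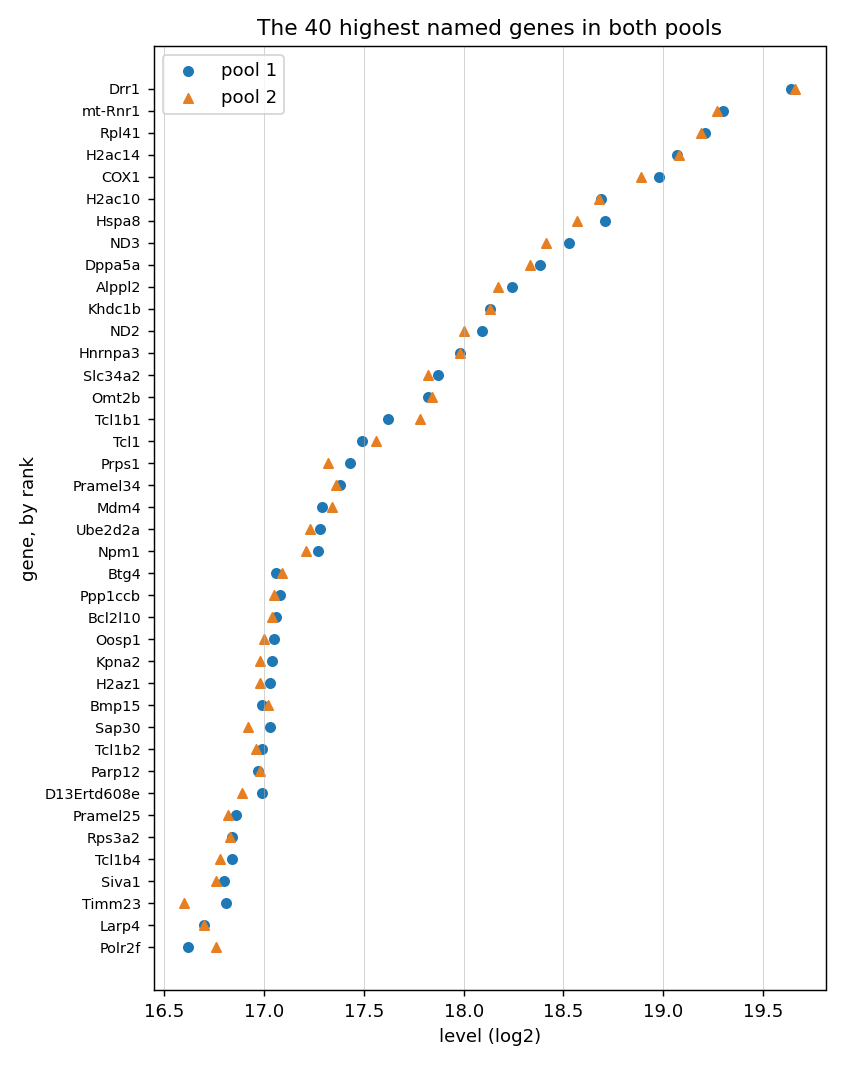
Each row is 1 of the 40 highest named genes and the x axis gives its log2 level; circles are pool 1 and triangles pool 2. The axis starts near 16.5, not at 0. Both symbols lie within 0.21 of each other in every row.

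Mitochondrial RNA was near the top of the scale. The mitochondrial genome codes for ribosomal RNAs and for subunits of the respiratory chain, and a zygote inherits its mitochondria from the egg. All 6 measured genes were in the top tier, with a median of 18.26. The small ribosomal RNA mt-Rnr1 stood at 19.30 and 19.27, the cytochrome oxidase subunit COX1 at 18.98 and 18.89, and the complex I subunits ND3 at 18.53 and 18.41 and ND2 at 18.09 and 18.00. COX2 was lower, at 14.64 and 14.49, and ND6, which is read from the other strand, lowest at 12.82 and 13.26. These 6 are part of 15 listed; 1 more lay on a row shared with another gene and 8 were not found by name. Subunits of the same chain made from nuclear genes had a median of 8.87, with 72 of 72 above background and 11 in the top tier. They ran from the cytochrome oxidase subunit Cox7a2 (14.89 and 14.77) down to the ATP synthase subunit Atp5e (5.77 and 5.64).

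Oocyte genes formed the second block at the top. The Tcl1 family, co-activators of the kinase AKT with a cluster of egg-specific copies, had a median of 16.81, and 6 of 7 members were in the top tier. Tcl1b1 stood at 17.62 and 17.78 and Tcl1 at 17.49 and 17.56, and only Mtcp1, which is known from T cells, lay near background at 5.29 and 5.24. Copies of 1 cluster resemble each other, so signal can be shared among them. Factors secreted by the oocyte were also high. Oosp1 stood at 17.05 and 17.00, and Bmp15, a ligand that acts on the surrounding follicle cells, at 16.99 and 17.02. Its relative Gdf9 was at 8.24 and 8.17. Of the egg coat genes, Zp3 (13.27 and 13.19) and Zp2 (13.02 and 12.81) were in the top tier and Zp1 (11.80 and 11.72) was not. In the list of 15 measured coat and secreted-factor genes all were above background and 7 in the top tier.

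Among genes of RNA decay 1 stood far above the rest. Btg4, which recruits the CCR4-NOT deadenylase to maternal messengers, stood at 17.06 and 17.09. Of 48 mRNA decay genes 47 were above background and 8 in the top tier, with a median in the middle tier (9.45 in pool 1 and 9.44 in pool 2). Btg4 was followed by the deadenylase Cnot8 (13.97 and 13.95) and the exosome subunits Exosc1 (13.85 and 13.80) and Exosc10 (13.16 and 13.14). The lowest were Zfp36, a protein that binds AU-rich messengers (5.46 and 5.28), and the decapping cofactor Dcp1b (5.13 and 5.19). Other genes known from the oocyte at this height were Bcl2l10, a BCL2 relative of the egg (17.06 and 17.04), and Dppa3, which protects the maternal genome from demethylation (16.72 and 16.64). The oocyte transcription factor Figla, by contrast, was at background (3.86 and 3.96). Among genes of the subcortical maternal complex, a protein lattice needed for early cleavage, 8 of 8 were above background, from Zbed3 (15.51 and 15.60) to Ooep (7.33 and 7.24).

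Large families of the egg stood high as families. Among 37 Pramel genes, relatives of a tumour antigen, all were above background and 14 in the top tier, led by Pramel34 (17.38 and 17.36) and Pramel25 (16.86 and 16.82). Obox homeobox genes, of which several are known activators of the embryonic genome, had a median of 13.43 over 6 genes, with Obox1 at 14.90 and 15.00 and Obox7 lowest at 10.72 and 10.57. Of 13 NLRP genes expressed in oocytes 12 were above background, from Nlrp4f (13.09 and 13.35) to Nlrp4d at background (4.98 and 4.96). Of 15 Fbxw genes, which code for F-box proteins, 13 were above background with a median of 11.80. Fbxw28 was highest at 13.98 and 13.75, while Fbxw17 (4.40 and 4.51) and Fbxw10 (4.08 and 4.15) were at background.

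Transcripts of the 2-cell stage were all detected but were not all high. Of 43 listed, 32 were measured, and all 32 were above background with a median of 9.49; 7 were in the top tier. Slc34a2, a phosphate transporter, led at 17.87 and 17.82. It was followed by Sp110, a nuclear body protein (15.60 and 15.47), the predicted gene Gm2016 (15.19 and 15.13), Tdpoz2 (12.96 and 13.35) and Spz1 (13.13 and 13.14). Tcstv3 (12.86 and 12.97) and Tcstv1 (12.53 and 12.56), which are known from 2-cell-like stem cells, were also in the top tier. The 6 Zscan4 genes, which act on telomeres, lay close together in the middle, from Zscan4a (9.53 and 9.44) to Zscan4d (9.05 and 8.97). The lowest of the list were Usp17ld (7.25 and 7.36) and Gata2 (6.52 and 6.53). Of the 11 unmeasured members 7 share a row with other genes and 4 were not found by name, among them Dux, an early activator of this group.

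Stretches before the starts of 4 Zscan4 genes are shown because they share letters that few other promoters hold. The start with the lowest coordinate was used for each gene. In the 300 bases from 250 before to 50 after the start, the letters TGATT, any 2 bases and ATCA in a row, a motif that DUX is known to bind, occurred on either strand in 35 of 15587 protein-coding promoters (0.225%) and in 4 of the 18 promoters found for the list, all of them Zscan4 genes. Of the 35, 25 were promoters of background genes, among them 9 of olfactory receptors. By tier the share was 0.152% of top, 0.105% of middle and 0.395% of background promoters. The 60 bases from 140 to 81 before the start follow, from RefSeq GRCm38.p6, with the match in capitals.
Zscan4b (chr7:10905131-10905190, minus strand): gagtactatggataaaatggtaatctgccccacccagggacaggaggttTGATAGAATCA
Zscan4c (chr7:11005605-11005664, plus strand): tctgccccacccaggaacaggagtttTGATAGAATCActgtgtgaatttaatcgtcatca
Zscan4d (chr7:11166229-11166288, minus strand): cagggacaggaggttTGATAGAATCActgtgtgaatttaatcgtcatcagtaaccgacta
Zscan4f (chr7:11397775-11397834, plus strand): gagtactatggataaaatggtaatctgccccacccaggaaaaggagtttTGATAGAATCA
Each match begins between 91 and 125 bases before the start and reads TGATAGAATCA, which holds the searched letters on the opposite strand. Zscan4b and Zscan4f are identical at 57 of the 60 positions. These genes are copies of each other, so the 4 matches are not independent, and a match is not evidence that a factor binds. Their levels were 9.26 and 9.01 for Zscan4b, 9.35 and 9.01 for Zscan4c, 9.05 and 8.97 for Zscan4d and 9.46 and 9.24 for Zscan4f.

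Regulators of genome activation were present in most cases. Of 30 measured, 29 were above background and 8 in the top tier, with a median of 10.64. Dppa2, a chromatin factor that opens early embryonic genes, stood at 15.92 and 15.81 and Klf17, a zinc finger activator, at 14.98 and 15.02. Mycl was at background (4.52 and 4.48) and Maz just above it (5.45 and 5.49). Of 47 listed polymerase II and general transcription genes 42 were measured, and all 42 were above background, where 58.5% of protein-coding genes were. The polymerase II subunit Polr2f was in the 40 highest (16.62 and 16.76) and the helicase Ercc2 of TFIIH was lowest (5.47 and 5.10).

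Protein synthesis was among the highest of the functions that all cells share. Of 34 measured ribosomal protein genes, 34 were above background and 17 in the top tier, with a median of 12.60. Rpl41 stood at 19.21 and 19.19, Rps26 at 16.61 and 16.73 and Rpl4 at 16.68 and 16.65, and the lowest were Rpl11 (7.01 and 6.94) and Rpl31 (6.84 and 6.83). A further 37 of 79 listed genes lie on rows that name several genes. When those rows were used under their first name, 70 members were above background and the median percentile among all genes went from 95.1 to 90.8. Translation factors were similar, with 39 of 39 above background, 15 in the top tier and Eif3h (15.81 and 15.75), Eef1a1 (15.76 and 15.75) and the cap-binding protein Eif4e (15.59 and 15.50) at the head. Ribosome assembly had 48 of 48 above background and 19 in the top tier, led by the nucleolar proteins Npm1 (17.27 and 17.21) and Fbl (15.23 and 15.28). The ribosomal proteins of mitochondria differed in place: 74 of 75 were above background but 1, Mrpl22 (12.74 and 12.66), was in the top tier, and their median was 8.34.

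RNA processing and protein folding had single genes far above their lists. Splicing factors had a median of 10.53, with 49 of 49 above background, while Hnrnpa3, an RNA-binding protein, read 17.98 in both pools and the core spliceosome protein Snrpg 16.72 and 16.65. Chaperones had a median of 10.35 and 33 of 33 above background. Among them Hspa8, the constitutive HSP70, stood at 18.71 and 18.57, its partner Stip1 at 16.14 and 16.11, and the heat-inducible Hspa1a at 5.27 and 5.26. The importin Kpna2, which carries cargo into the nucleus, stood at 17.04 and 16.98, with 40 of 40 transport genes above background.

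Cell division genes were high. Of 50 measured genes of mitotic entry and exit, 50 were above background and 18 in the top tier, with a median of 11.41. The oocyte kinase Wee2 (15.83 and 15.92), the mitotic kinase Plk1 (15.45 and 15.39) and the anaphase ubiquitin genes Ube2c (15.51 and 15.19) and Cdc20 (15.11 and 14.99) led them, and the phosphatase Cdc25b was lowest (7.43 and 7.05). DNA replication had 48 of 48 above background and a median of 9.73, from Dbf4, the partner of the CDC7 kinase (14.32 and 14.23), to the polymerase subunit Pold4 (5.37 and 5.40). G1 regulators were more uneven, with 23 of 27 above background. Cyclin E1 (Ccne1, 15.39 and 15.22) was in the top tier, while the cell cycle inhibitors Cdkn2a (4.34 and 4.32) and Cdkn2b (4.26 and 4.50) were at background.

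Protein turnover genes were above background throughout the proteasome and the COP9 signalosome, which removes NEDD8 from cullins. All 30 measured proteasome genes were above background with a median of 11.73, from Psma6 (14.96 and 14.88) to Psmd13 (8.51 and 8.48). The ubiquitin-conjugating enzyme Ube2d2a stood at 17.28 and 17.23. All 10 COP9 signalosome genes were above background, with Cops8 highest (13.05 and 12.71), Cops3 at 9.50 and 9.52 and Cops9 lowest (8.42 and 8.37). Trim21, whose mRNA other pools received, was close to background at 6.27 and 5.65.

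Chromatin genes spanned the scale. Histone variants and chaperones had 25 of 27 above background and 11 in the top tier, with H2az1 at 17.03 and 16.98. The variants Macroh2a2 (4.47 and 4.67) and H1f10 (4.10 and 4.10) were at background. Histone genes of the clusters were uneven, with 20 of 28 above background and a median of 6.48. H2ac14 (19.07 and 19.08; a pseudogene by RefSeq) and H2ac10 (18.69 and 18.68) were among the 40 highest, yet H2ac18 read 4.15 and 4.19. Histone copies are nearly identical, so their rows cannot be assigned to single genes with certainty. Among DNA methylation genes 20 of 20 were above background; the oxidase Tet3 of the zygote stood at 13.93 and 13.95 and its relative Tet2 at 5.84 and 6.12. The Polycomb genes Ezh1 (14.17 and 14.08), Eed (14.14 and 14.10) and Ezh2 (14.07 and 14.05) led the histone methylation enzymes, 42 of 42 of which were above background.

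**Figure D3:**
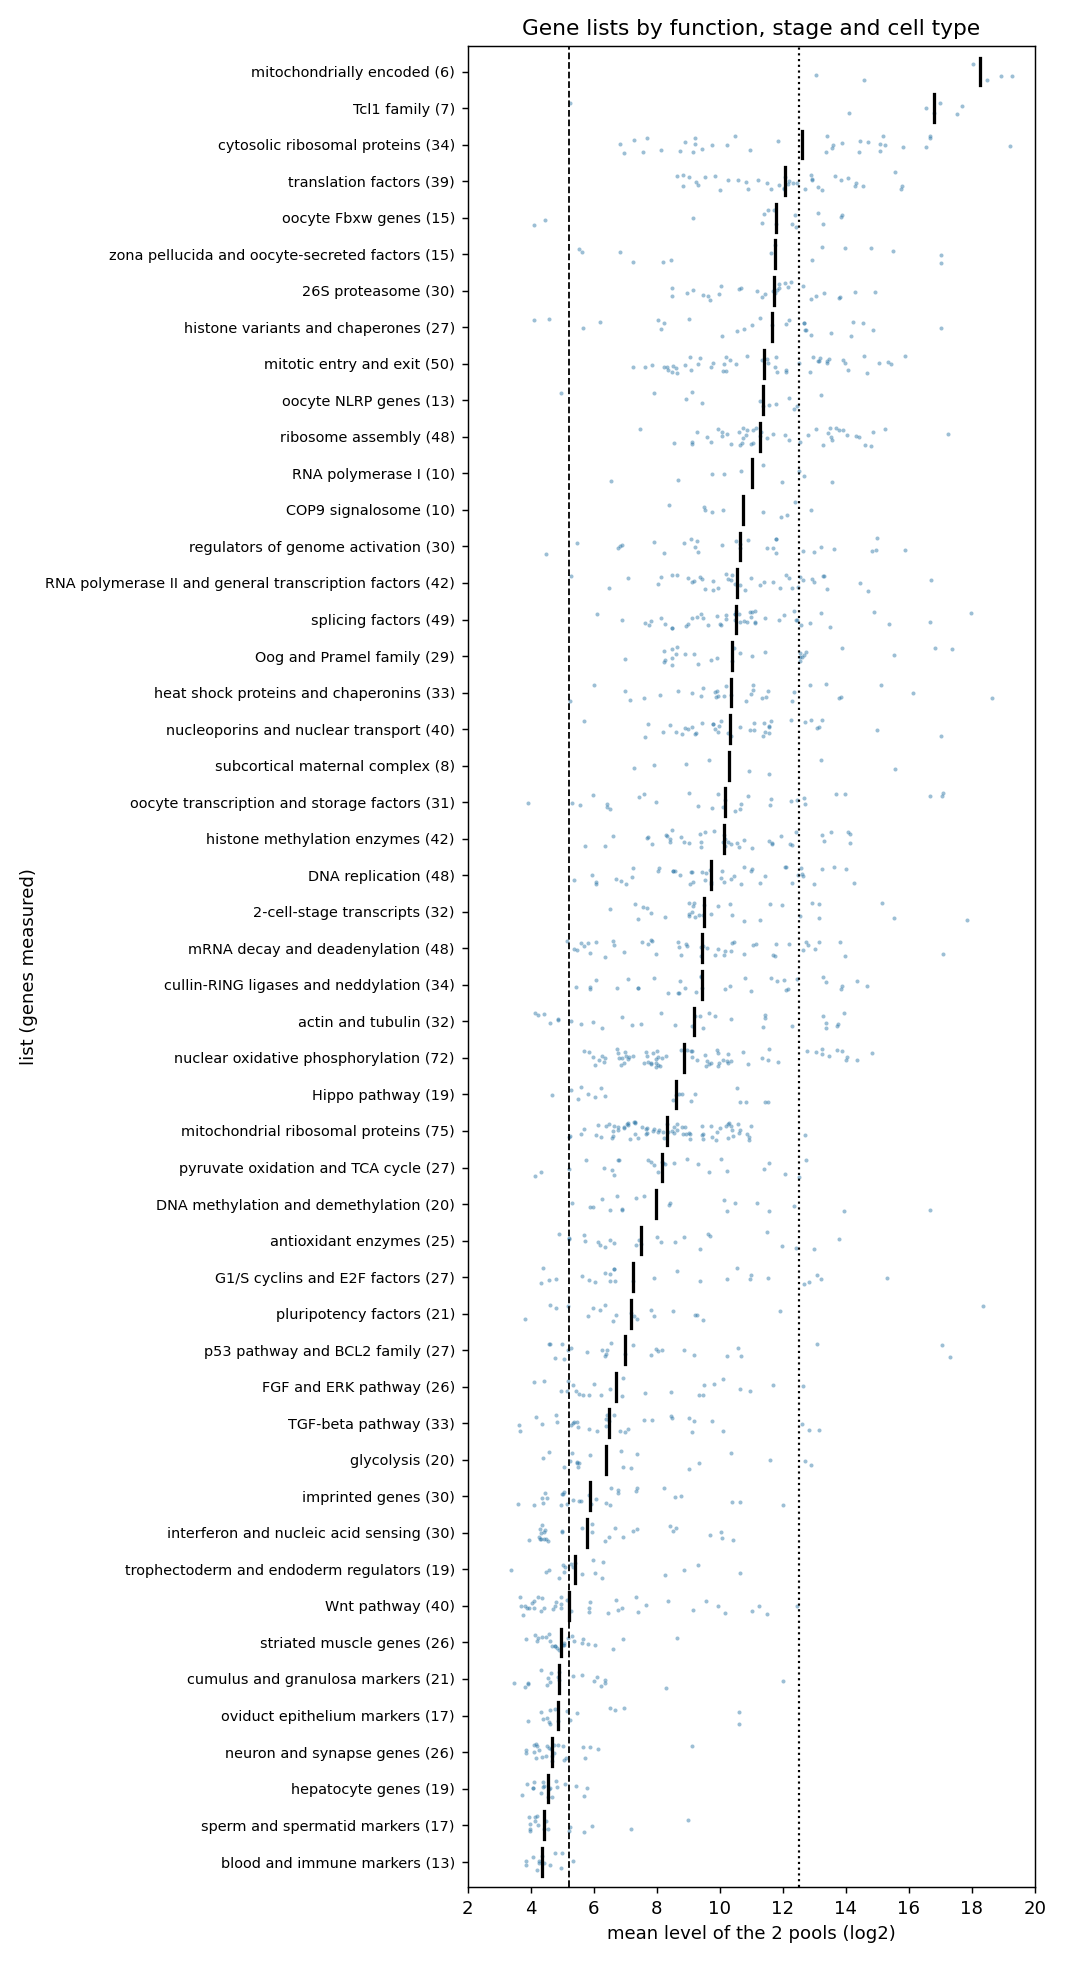
Each row is a gene list ordered by its median; points are genes at their mean log2 level in the 2 pools, jittered in height, and black bars are medians. The dashed line is the background level (5.23) and the dotted line the start of the top tier (12.51). Mitochondrial, Tcl1 and ribosomal protein genes stand at the top and markers of blood, sperm, liver and neurons at the foot.

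Energy metabolism stood in the middle, with glycolysis low within it. The early embryo is known to use pyruvate and lactate before it can grow on glucose. Of 20 glycolysis genes 17 were above background, with a median of 6.38 beside 5.38 for all genes. Ldhb (12.91 and 12.87), which interconverts pyruvate and lactate, and Gapdh (12.64 and 12.74) were in the top tier. Hexokinases, which start the pathway, were at background for Hk2 (4.99 and 5.10) and Hk3 (4.39 and 4.39). Pyruvate oxidation and the TCA cycle had 24 of 27 above background and a median of 8.18, led by the pyruvate dehydrogenase subunit Pdhb (12.65 and 12.81) and the phosphatase Pdp2 that activates it (12.52 and 12.52). The kinase Pdk4, which blocks pyruvate dehydrogenase, was at background (4.33 and 4.36).

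Genes near the middle of the expressed range were of mixed function. The median level of genes above background was 7.61. The 10 named genes closest to it were Antxr2, Crybg1, Cyth3, Gdf11, Mcm9, Mfsd13a, Usp43, Zfp748, Zfp758 and Ccar2, which include an anthrax toxin receptor, a growth factor, a helicase of DNA repair and a pair of zinc finger genes. At this level the pools are less alike than at the top: Antxr2 read 7.75 and 7.47, and Mcm9 7.52 and 7.70. Zfp genes as a family, most of them DNA-binding repressors, were spread over the whole middle, with 284 of 367 above background, 14 in the top tier and a median of 6.80. Solute carriers had 191 of 334 above background (57.2%), near the 52.4% of all genes and the 58.5% of protein-coding genes, with 8 in the top tier.

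Signalling pathways spanned all levels. In the Wnt pathway, which works through beta-catenin, 20 of 40 genes were above background (50%), and 0 were in the top tier. This share was near the 52.4% of all genes and below the 58.5% of protein-coding genes. The kinases Gsk3a (12.39 and 12.51) and Gsk3b (10.99 and 11.07), the scaffold Axin1 (11.51 and 11.48) and the co-receptor Lrp6 (11.21 and 11.25) were the highest, while each measured Wnt ligand of the list was at background, Wnt1 (3.63 and 3.72) and Wnt10a (3.73 and 3.66) being the lowest. In the TGF-beta pathway 27 of 33 were above background. The receptor Bmpr2 (13.09 and 13.20), the ligand Tgfb2 (12.86 and 12.80) and the ubiquitin ligase Smurf2 (12.69 and 12.52) were in the top tier, and the ligand Bmp2 (3.59 and 3.71) and the antagonist Nog (3.66 and 3.61) at background. Bmp6, a ligand listed with the oocyte-secreted factors, was in the top tier, with a mean of the pools of 13.96. In the FGF and ERK pathway 21 of 26 were above background, with the feedback inhibitor Spry4 (12.88 and 12.43) highest. Its ligands differed, from Fgf4 in the middle (9.52 and 9.42) to Fgf2 (4.43 and 4.39) and Fgf15 (4.14 and 4.09) at background. Hippo pathway genes, which later separate outer from inner cells, were above background in 18 of 19 cases, with Mob1a (11.60 and 11.44), Nf2 (11.49 and 11.41) and Tead4 (10.75 and 10.54) among the highest. Genes of interferon and nucleic acid sensing were above background in 16 of 30 cases (53.3%), below the 58.5% of protein-coding genes. Stat2 stood at 10.48 and 10.36 and the antiviral gene Rsad2 at 3.98 and 3.91.

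A pair of p53 and BCL2 genes stood apart from their list. The list had 21 of 27 above background (77.8%), but Mdm4, which restrains p53, stood at 17.29 and 17.34 beside Bcl2l10 (17.06 and 17.04). Mdm2, the ubiquitin ligase for p53, was at 10.66 and 10.71. At the foot were Bcl2a1a (4.62 and 4.61) and Phlda3 (4.57 and 4.58). Imprinted genes, read from 1 parental copy, had 19 of 30 above background (63.3%), where 52.4% of all genes and 58.5% of protein-coding genes were. With 0 in the top tier, they ran from Phlda2 (12.27 and 11.77) and Igf2r (10.60 and 10.71) to Mkrn3 (4.20 and 3.99) and Magel2 (3.59 and 3.61).

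Lineage regulators of the blastocyst were spread from the background to the top tier. Of 21 pluripotency genes 17 were above background (81.0%, where 52.4% of all genes were), with pool medians of 7.15 and 7.22, and 1 of them was in the top tier: Dppa5a, an RNA-binding protein of eggs and stem cells, at 18.38 and 18.33. The factors Sall4 (11.95 and 11.88) and Klf4 (9.28 and 9.30) and the growth factor Fgf4 (9.52 and 9.42) were in the middle. Pou5f1, the core factor of pluripotency, stood at 8.48 and 8.53, Sox2 at 5.89 and 5.77 and Nanog at 6.25 and 5.69. Nr0b1 was lowest (3.78 and 3.89). Trophectoderm and endoderm regulators had a median of 5.39, against 5.38 for all genes and 5.80 for protein-coding genes. Of these regulators 12 of 19 were above background (63.2%), where 58.5% of protein-coding genes were. Tead4, Tfap2c (9.40 and 9.25) and Gata4 (8.89 and 8.84) led, Cdx2 was just above background (5.35 and 5.44), and Elf5 (4.64 and 4.55), Sox17 (4.51 and 4.44) and Sox7 (3.42 and 3.34) were at background.

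Of the 14609 background genes 7983 were protein-coding, 2620 were long non-coding RNA genes and 1944 pseudogenes. Several families that serve differentiated tissues lay mostly there, where 52.4% of all genes and 58.5% of protein-coding genes were above background. Of the Hox genes, which pattern the body axis, 1 of 33 was above background (Hoxb2, 5.49 and 5.16). Collagens were above it in 5 of 43 cases, keratins in 8 of 49, keratin-associated proteins of hair in 8 of 49 and immunoglobulin segments in 26 of 208. Vomeronasal receptors passed in 22 of 301 cases and taste receptors in 2 of 38. Interleukins (12 of 37) and chemokines (12 of 35) passed more often. Tissue genes were also mostly at background, with 3 of 19 hepatocyte genes, 5 of 26 neuron genes and 1 of 13 blood and immune genes above it. Striated muscle genes were nearer the share of all genes, at 9 of 26 (34.6%). Within these families single genes stood out. Olfr1055 read 10.54 and 10.56, and the next olfactory receptor, Olfr976, 7.67 and 7.84. The taste receptor subunit Tas1r3 read 8.51 and 8.14, the vomeronasal receptor Vmn1r210 7.91 and 7.17 and the titin gene Ttn 8.66 in both pools. Among potassium, sodium and calcium channel genes 36 of 127 were above background, led by Kcnk6 (11.41 and 11.19) and Kcnk5 (11.21 and 10.73). The 127 were matched by name and include antisense names such as Kcnd3os (3.99 and 3.99).

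**Figure D4:**
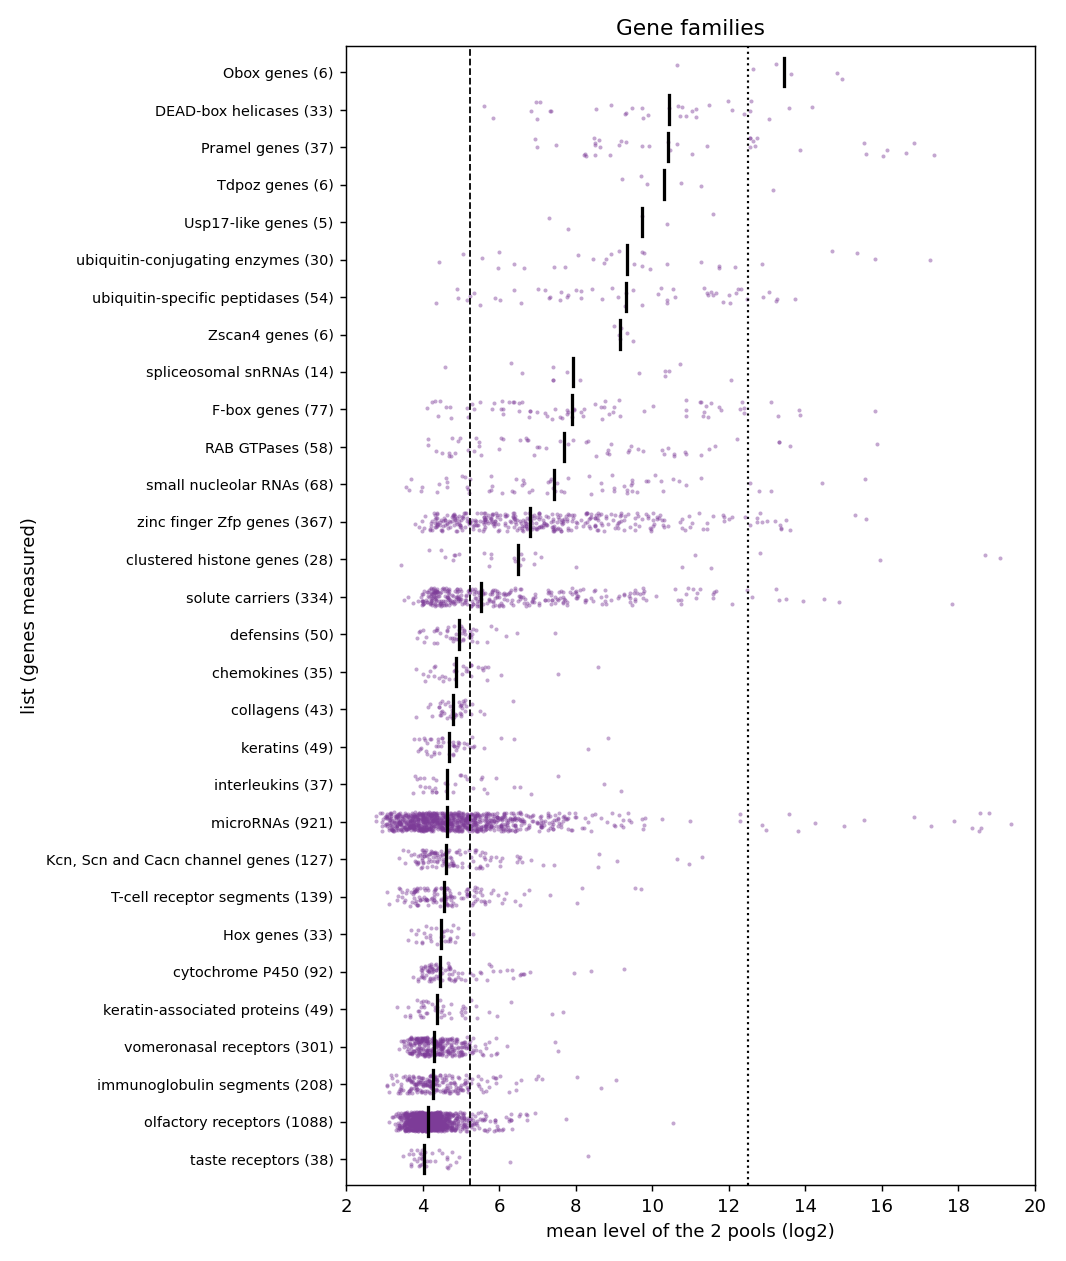
Each row is a gene family ordered by its median; points are genes at their mean log2 level in the 2 pools, jittered in height, and black bars are medians. The dashed line is the background level (5.23) and the dotted line the start of the top tier (12.51). Obox genes have the highest median (13.43), microRNA genes reach from the background to 19.37, and receptor families lie almost wholly at background.

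Promoters of the tiers differed in a property that the array did not read. RefSeq held a promoter for 15587 of 19228 measured protein-coding genes, and 250 bases before 1 start per gene were examined for CpG, the dinucleotide that is depleted outside CpG islands. Where a gene had several starts, the one with the lowest coordinate was used on either strand. That is the most upstream start on the plus strand and the most downstream on the minus strand. The ratio of observed to expected CpG had a median of 0.79 in 660 top-tier genes, 0.71 in 8594 middle genes and 0.25 in 6333 background genes. A ratio of at least 0.6 was found in 72.3%, 63.5% and 20.0% of them, and in 46.2% overall. Level and CpG did not always run together: the 17 Hox promoters found, of a family with 1 of 33 genes above background, had a median ratio of 0.75, and the 26 found for the 40 highest named genes had 0.51, below the 0.55 of all genes. The letters TATAAA between 40 and 15 bases before the start were found in 1.36% of top-tier, 1.45% of middle and 4.67% of background promoters (2.76% overall). These shares are descriptions over genes, which share families and neighbourhoods. Olfactory receptors set the background level, so most of them are in that tier by construction, and their 918 promoters had a median ratio of 0.10. The letters TATAAA were found in 28 of 45 promoters of keratin-associated genes, a family mostly at background. Tiers without these families were not compared.

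Lists of egg genes had lower ratios than lists of shared cell functions. The median ratio was 0.83 for ribosomal proteins, 0.86 for translation factors and 0.77 for mitotic genes, but 0.18 for the Tcl1 family (7 promoters), 0.10 for the Oog and Pramel list (26), 0.07 for the oocyte Fbxw genes (12) and 0.29 for coat and secreted-factor genes (10). It was 0.15 for the 18 promoters of 2-cell-stage transcripts and 0.10 for olfactory receptors. The last 100 bases before the start of 4 genes from the 40 highest show this range, chosen after their values were seen, with each CpG in capitals.
Hnrnpa3 (chr2:75659159-75659258, plus strand): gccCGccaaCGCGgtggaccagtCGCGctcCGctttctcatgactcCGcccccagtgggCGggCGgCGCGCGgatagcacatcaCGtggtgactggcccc
Rpl41 (chr10:128549169-128549268, minus strand): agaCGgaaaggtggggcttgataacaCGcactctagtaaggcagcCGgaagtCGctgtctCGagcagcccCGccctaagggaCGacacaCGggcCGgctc
Tcl1b1 (chr12:105159604-105159703, plus strand): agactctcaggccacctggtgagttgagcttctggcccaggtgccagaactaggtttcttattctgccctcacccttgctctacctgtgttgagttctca
Btg4 (chr9:51115901-51116000, plus strand): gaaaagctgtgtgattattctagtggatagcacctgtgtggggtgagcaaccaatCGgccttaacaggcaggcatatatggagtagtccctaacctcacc
In the whole 250 bases Hnrnpa3 has 40 CpG and Rpl41 12, while Tcl1b1 and Btg4 have 1 each. All 4 genes read above 17 in both pools.

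The genes that differed most between the pools were mostly higher in pool 2. Of the 49 genes over 2-fold apart, 44 were higher in pool 2, although over all genes 14597 were higher in pool 2 and 15224 in pool 1. The 10 above background with the largest difference were all higher in pool 2. Inha, the alpha subunit of the hormone inhibin, read 6.30 in pool 1 and 10.32 in pool 2, a difference of 4.02 on the log2 scale. Akr1c18, which inactivates progesterone, read 7.38 and 9.77, and the steroid dehydrogenase Hsd3b1 8.59 and 10.35. The others were Gm6665, Tceal9, Akr1cl, the glutathione transferase Gstm2, the peptide-processing enzyme Cpe, the matrix protein Thbs1 and the retinal dehydrogenase Aldh1a1, with differences from 1.76 to 2.40. Inhibin and several of these steroid enzymes are known from the ovarian follicle.

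The cumulus and granulosa list was read in both pools beside these genes. Its median was 4.78 in pool 1 and 5.01 in pool 2, 16 of 21 genes were higher in pool 2 and 1, Inha, was over 2-fold apart. The log2 of its summed signal was 12.26 in pool 1 and 12.58 in pool 2, and 9.99 to 11.94 in the 6 injected pools. The list median did not follow the sum: it was 4.75 to 5.24 in the injected pools, highest with Trim21 mRNA and antibody (5.18 and 5.24). In the non-manipulated pools most of the summed signal came from Amhr2, the receptor for anti-Mullerian hormone, which was nearly equal in both (12.02 and 11.99). Amhr2 was lower in each injected pool, at 7.69 to 11.61. Other members differed less: Fst read 5.73 and 6.46, Tnfaip6 6.04 and 6.41, Inhba 5.06 and 5.64 and Has2 5.76 and 5.52. Fshr, Amh and Foxl2 (3.88 and 3.94) were at background in both pools, and Cyp19a1 and Lhcgr were not measured. In the 6 injected pools Inha ranged from 5.90 to 7.67 and Akr1c18 from 5.27 to 7.06, all below non-manipulated pool 2. Gm6665, Gstm2, Thbs1 and Aldh1a1 also stayed below it in each injected pool. The other 4 genes came near or passed pool 2 in an antibody pool. Tceal9 read 10.66 and 9.95 in the pools with antibody alone, against 10.06 in pool 2. In the second of these pools Akr1cl read 9.72 (9.20 in pool 2), Cpe 9.29 (9.35) and Hsd3b1 10.32 (10.35). The list member Cyp11a1 read 9.93 and 9.05 in the antibody pools, above both non-manipulated pools (6.38 and 6.32). The part of such cells in the difference between pools was not tested.

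**Figure D5:**
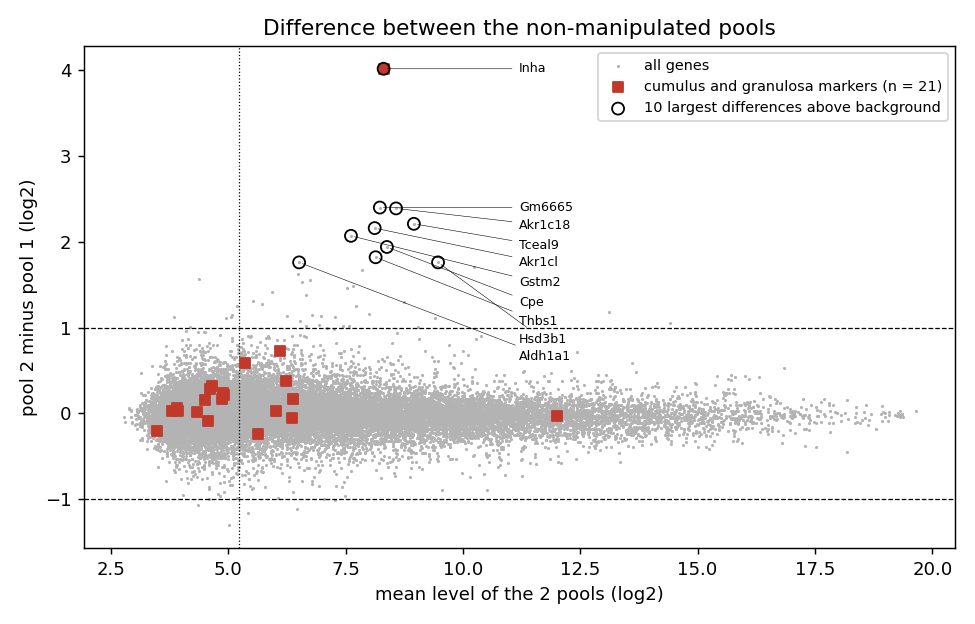
The x axis gives the mean log2 level of the 2 non-manipulated pools and the y axis pool 2 minus pool 1 on the log2 scale. Grey points are all genes, red squares the 21 cumulus and granulosa markers and open circles the 10 largest differences above background, all of which are above 0. Dashed lines mark a 2-fold difference and the dotted line the background level.

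In the injected pools the same genes did not all keep their place. Of the 500 highest genes by the non-manipulated mean, 461 and 441 were among the 500 highest in the pools with Trim21 mRNA, 380 and 402 in those with the antibody alone and 277 and 275 in those with both. These genes were chosen on the non-manipulated arrays, which alone favours their own pools (494 and 493), and each group had its own day, so treatment, day and this choice cannot be told apart in the counts.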

How the data were processed

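The deposited values are log2 levels per transcript cluster, made with Affymetrix Expression Console per the submitters' processing notes. Its version, the summarisation method and the array's genome build were not given in the sources used here. Per the labels, total RNA was labelled with the GeneChip WT Pico kit. In the first deposited column, whose unit was set as other than log2 for this reason, the authors' table holds 1 cell far over 100 and its row was dropped, leaving 65955 rows. Symbols came from the platform annotation and were updated through RefSeq (1741 rows); the 1489 rows with more than 1 gene and the 33206 without any were not ranked. Of 30703 genes, 30701 matched RefSeq. Per gene the row with the highest mean of the 2 pools was kept, with no further normalization and no filter.

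Members and lists were chosen with earlier results of these data known. After the values were seen, 2 misread names were removed from lists, and antisense names from some families. The channel family still holds antisense names, among them Kcnd3os and Kcnmb4os2. Named were the 40 highest genes (leaving out 11644 predicted, clone or small RNA names), the 4 highest and 2 lowest of a list with members of defining role, the 2 highest of background families, the 10 largest differences between pools above background and the 10 genes nearest the median of those above background; others were named after their values were seen. No groups were compared and no test was run, so no p-value is given; with 2 pools, nothing but the difference between them measures error. Alternatives were the row kept, shared rows, quantile normalization, centring, each pool alone, symbols as printed, other background levels and other thresholds, and, chosen after seeing the data, only protein-coding genes. The ranking was tested on simulated data. Python 3.11.15, pandas 2.3.3 and numpy 2.4.6 were used.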

Additional observations from a re-analysis of the deposited data

Results flagged for a closer look

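Signal above background was found outside the genes that were ranked. Of 33206 rows with no gene name, 8471 (25.5%) had a mean level above 5.23, 867 reached the level of the top tier, and the highest stood at 19.52. Of 1489 rows that name several genes, 959 (64.4%) were above background, 137 reached the level of the top tier, and the highest stood at 19.16. These rows carry no single name and were not examined further.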

How the results depend on the processing

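The number of genes above background was 16094 and lay between 11228 and 16860 under 11 alternatives. The lowest values were 11228 with only protein-coding genes ranked, chosen after seeing the data, and 11604 with the 99th percentile of olfactory receptors (6.31) as the background level; without either pool it was 15948 to 16128. The number of genes over 2-fold apart was 49, and 47 to 54 under quantile normalization, centring, the mean of a gene's rows, shared rows and printed symbols. It was 32 with only protein-coding genes, 40 with genes above background only, 409 at 1.5-fold and 6 at 4-fold. The count shared between the pools was 487 of 500 and 480 to 488 under the same settings and with only protein-coding genes, while a shorter or longer head shared 95 of 100 and 975 of 1000. Leaving out a pool gives no value for either of these counts. Over 80 lists and families, counts of members above background stayed within 1.5 times in 840 of 876 recomputations; 24 of the 36 that did not came from the higher background level. Median percentiles of lists moved by more than the spread between pools in 208 of 636 recomputations, 74 of them with only protein-coding genes, and by at most 7.86 points. No paired analysis was possible because no groups were compared. Array number limits precision: 2 pools of 1 day give no spread between days, and differences near the median of 0.10 between pools are not resolved.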
